A study of Mus musculus with 24 samples.

Results

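The Nrf2 antioxidant response genes are 10 mouse genes chosen by their symbols: the transcription factor Nfe2l2 (Nrf2), its inhibitor Keap1, and the enzyme genes Nqo1, Gclc, Gclm, Srxn1, Txnrd1, Hmox1, Gsr and Cat. All 10 were found among the 21755 genes of the p16-3MR liver table. In the wild-type table, whose gene labels lack 9 lower-case letters, 6 of the 10 (Nfe2l2, Keap1, Nqo1, Gclc, Srxn1 and Txnrd1) had a label that fits a single mouse symbol among 12643 labels. The labels of Gclm, Hmox1, Gsr and Cat also fit other genes, and those 4 members were not read in wild-type livers. RNA was measured with Smart-3SEQ, which reads the 3′ ends of transcripts, in 24 livers from separate mice, 3 in each of 4 groups per genotype: females (F) and males (M) given ganciclovir (GCV) or vehicle (VEH, water at pH 11). p16-3MR mice carry a transgene in which p16 regulatory sequence drives a viral thymidine kinase, so that GCV kills cells with an active p16 promoter, and they received monthly intraperitoneal courses of 5 days from an age of 16 to 18 months. Wild-type (WT) mice lack the transgene, received the same agents from 6 months of age and were sampled after 3 months, and the labels state this collection after 3 months without naming the p16-3MR mice, whose livers for sequencing were, by the study's methods, collected in old age at the end of the experiment. The labels give the GCV dose as 150 mg/kg, the study's methods give a lower dose, and the mouse strain is not given in the sources used here. Genotype, age at treatment and batch (batch 1 for p16-3MR, batch 2 for WT) coincide and cannot be told apart, so each genotype was analysed on its own.

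Nrf2 is held in the cytoplasm by Keap1, which marks it for degradation; oxidants and electrophiles that modify Keap1 let Nrf2 enter the nucleus and bind antioxidant response elements with small Maf partners. Its target enzymes make and recycle glutathione (Gclc, Gclm, Gsr), reduce thioredoxin and peroxiredoxins (Txnrd1, Srxn1), reduce quinones (Nqo1) and cleave haem (Hmox1). Cat encodes catalase, the peroxisomal enzyme that breaks down hydrogen peroxide and is abundant in hepatocytes. Because Nrf2 is controlled largely at the protein level, the mRNA of its targets is the usual readout of its activity in liver.

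The promoters of the members were searched for the core of the antioxidant response element, TGACNNNGC, on both strands, from 250 bases before to 50 bases after each RefSeq start site (GRCm38.p6). A window was present for 7 of the 10 members, 9 windows in all, and none was used for Gclc, Hmox1 and Gsr. The core was found in 4 of these 7 members, Nfe2l2, Gclm, Srxn1 and Txnrd1, and not in the windows of Keap1, Nqo1 and Cat. Of all 27025 genes with a window, 13.99% held it. A match describes these letters only. The following lines show each match with 10 bases on both sides, 5′ to 3′ on the gene's strand, with the core or its reverse complement in capitals.
Nfe2l2, chr2:75704885-75704913, minus strand, 240 bases before the start site: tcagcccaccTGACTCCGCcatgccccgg
Gclm, chr3:122245413-122245441, plus strand, 134 bases before the start site: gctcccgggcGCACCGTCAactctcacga
Srxn1, chr2:152105542-152105570, plus strand, 28 bases after the start site: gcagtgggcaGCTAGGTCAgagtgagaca
Txnrd1, chr10:82859104-82859132, plus strand, 92 bases before the second of 3 start sites: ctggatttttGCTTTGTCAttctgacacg

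Nqo1 and Txnrd1 were the members called between the sexes in WT livers, so the 250 bases before their start sites are printed whole; the Txnrd1 stretch is the one with the core, again in capitals, and the Nqo1 stretch holds no match.
Nqo1, chr8:107403206-107403455, minus strand: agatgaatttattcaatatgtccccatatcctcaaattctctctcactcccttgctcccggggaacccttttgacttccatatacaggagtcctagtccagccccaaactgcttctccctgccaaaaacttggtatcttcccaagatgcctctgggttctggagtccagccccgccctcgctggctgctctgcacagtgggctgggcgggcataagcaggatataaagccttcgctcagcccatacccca
Txnrd1, chr10:82858956-82859205, plus strand: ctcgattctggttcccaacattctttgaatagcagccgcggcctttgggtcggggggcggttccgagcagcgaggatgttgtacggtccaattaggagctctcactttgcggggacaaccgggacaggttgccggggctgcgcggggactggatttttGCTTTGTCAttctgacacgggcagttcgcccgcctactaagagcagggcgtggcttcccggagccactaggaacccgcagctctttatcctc

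The libraries held 5005760 to 7160172 counts per p16-3MR liver and 3084517 to 5667904 per WT liver. Levels are given as CPM (counts relative to a fixed total per library) scaled by TMM, which sets the middle of the gene ratios between libraries equal. On this scale 3 counts corresponded to 2.32 CPM in GCV-treated p16-3MR female 33, 0.293 to 0.578 CPM in the other 11 p16-3MR livers and 0.516 to 0.943 CPM in WT livers, and these floors cover counting error only. GCV-treated p16-3MR female 33 stood apart: 64.0% of its counts fell on mitochondrially encoded genes (12.3 to 22.4% in the other 11 livers) and its TMM factor was 0.259 (0.850 to 1.80 in the others). Among those others, GCV-treated male 32 and VEH-treated male 24 had the highest TMM factors, 1.80 and 1.64, and the rest lay at 0.850 to 1.19. Y-linked genes matched the labelled sex in all 24 livers. Hepatocyte markers were abundant in both tables, although only 2 of 8 (Ttr and Serpina1c) could be read in WT livers. Counts of Cdkn2a, which encodes p16, were 0 to 7 per p16-3MR liver. The biological coefficient of variation was 55.8% across p16-3MR livers and 16.6% across WT livers.

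The first comparison asks whether the members differed between GCV- and VEH-treated p16-3MR females. By the quasi-likelihood test of edgeR, adjusted over all genes after Benjamini and Hochberg, 0 of 10 members were called at an adjusted p under 0.05, where 0.0% of the 21755 genes were called. At an unadjusted p under 0.05, 1 member (Gsr, lower) passed, beside 7.37% of all genes. GCV-treated females were below VEH-treated females for 8 of the 10 members and above for 2 (Keap1 and Srxn1), the median log2 fold change being -0.51, while 49.8% of all genes were lower and the median over all genes was 0.00. Without liver 33 the members' median was -0.26, with 7 lower and 3 higher, and without VEH-treated female 27 it was -0.32. GCV and VEH values did not overlap for 3 of the 10 members, Gsr, Hmox1 and Keap1, and did not overlap for 20.1% of the 7088 genes with a mean of at least 10 CPM, a mean that all members but Nqo1 reached. DESeq2 called 90 genes in this comparison, and 0 members. Library values also separated these GCV- and VEH-treated females without overlap. TMM factors were 0.259 to 0.990 after GCV and 1.04 to 1.14 after VEH. Counts per liver were 5005760 to 6101562 and 6364540 to 7160172, and genes with counts 13409 to 16870 and 17147 to 17727. Their part in the member values was not tested.

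Gsr encodes glutathione reductase, which returns oxidised glutathione to its reduced form. Its level was 20.6, 24.7 and 23.1 CPM in GCV-treated females 31, 33 and 35 and 31.5, 37.8 and 36.2 CPM in VEH-treated females 27, 28 and 29. Every GCV-treated female was thus below every VEH-treated female, and the 6 males lay between 30.2 and 40.2 CPM. The log2 fold change was -0.63 (SE 0.27, 95% interval -1.21 to -0.04, adjusted p = 0.667), that is 0.647-fold. It stayed between -0.75 and -0.56 with each liver left out in turn. Summed markers of stellate cells were 163 to 284 CPM in GCV-treated and 308 to 353 CPM in VEH-treated females, so they were lower in the same group, as were Kupffer cell markers with overlap, and their part in the Gsr values was not tested.

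Hmox1 encodes haem oxygenase-1, which opens the haem ring and is known from Kupffer cells, the resident macrophages of the liver. Its level was 13.3, 13.9 and 8.39 CPM in GCV-treated females 31, 33 and 35 and 28.8, 99.8 and 26.9 CPM in VEH-treated females 27, 28 and 29. The groups did not overlap, and VEH-treated female 28 was far above the others. The log2 fold change was -2.14 (SE 1.01, 95% interval -4.32 to 0.03, adjusted p = 0.667), and -1.31 without female 28. In bulk liver, fewer cells of a type and less RNA per cell cannot be told apart. The summed level of 8 Kupffer cell markers (Clec4f, Vsig4, Cd5l, Timd4, Marco, C1qa, C1qb and C1qc, all detected in every liver) was 150 to 476 CPM in GCV-treated and 406 to 1151 CPM in VEH-treated females, so it was lower in the same group. The part of these cells in the Hmox1 values was not tested.

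Keap1, the inhibitor, was at 65.7, 52.5 and 44.9 CPM in GCV-treated females 31, 33 and 35 and at 43.2, 40.2 and 38.8 CPM in VEH-treated females 27, 28 and 29. Its groups did not overlap, but the log2 fold change of 0.42 (SE 0.30, 95% interval -0.23 to 1.07, adjusted p = 0.731) had an interval that included 0 and was 0.26 without GCV-treated female 31. Nfe2l2 was at 88.9, 13.9 and 94.6 CPM after GCV and at 74.0, 67.1 and 82.2 CPM after VEH. The low value is female 33, and the log2 fold change of -0.16 (SE 0.55) turned to 0.24 without that liver.

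The glutamate-cysteine ligase subunits start glutathione synthesis, Gclc as the catalytic and Gclm as the modifier subunit. Gclc was at 117, 140 and 170 CPM in GCV-treated and 249, 164 and 270 CPM in VEH-treated females, which overlap in 1 VEH-treated female, 28 (log2 fold change -0.68, SE 0.48, adjusted p = 0.731). Gclm was at 204, 83.4 and 207 CPM after GCV and 201, 230 and 198 CPM after VEH. Only female 33 was low for Gclm, and the log2 fold change of -0.34 (SE 0.50) became -0.09 without it. Txnrd1, cytosolic thioredoxin reductase, was at 62.7, 31.7 and 92.4 CPM after GCV and 119, 91.7 and 88.5 CPM after VEH (log2 fold change -0.67, SE 0.40, adjusted p = 0.688). Its groups overlapped, with female 33 again lowest. Srxn1, which reactivates overoxidised peroxiredoxins, was at 40.7, 49.4 and 22.8 CPM after GCV against 25.7 to 27.7 CPM after VEH (0.50, SE 0.36). Nqo1 was at 3.47 to 5.37 CPM and 3.33 to 9.38 CPM (-0.54, SE 0.57), and Cat at 2206, 236 and 2934 CPM and 1777 to 3208 CPM (-0.48, SE 0.95). None of these 3 separated the treatments. Without liver 33 the log2 fold change was -0.02 for Cat, 0.20 for Srxn1 and -0.42 for Txnrd1. Without GCV-treated female 35 the log2 fold change was -1.04 for Cat, 0.77 for Srxn1, -1.07 for Txnrd1 and -0.54 for Gclm. That of Nqo1 was -0.18 without VEH-treated female 27 and -0.90 without VEH-treated female 28.

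**Figure D1:**
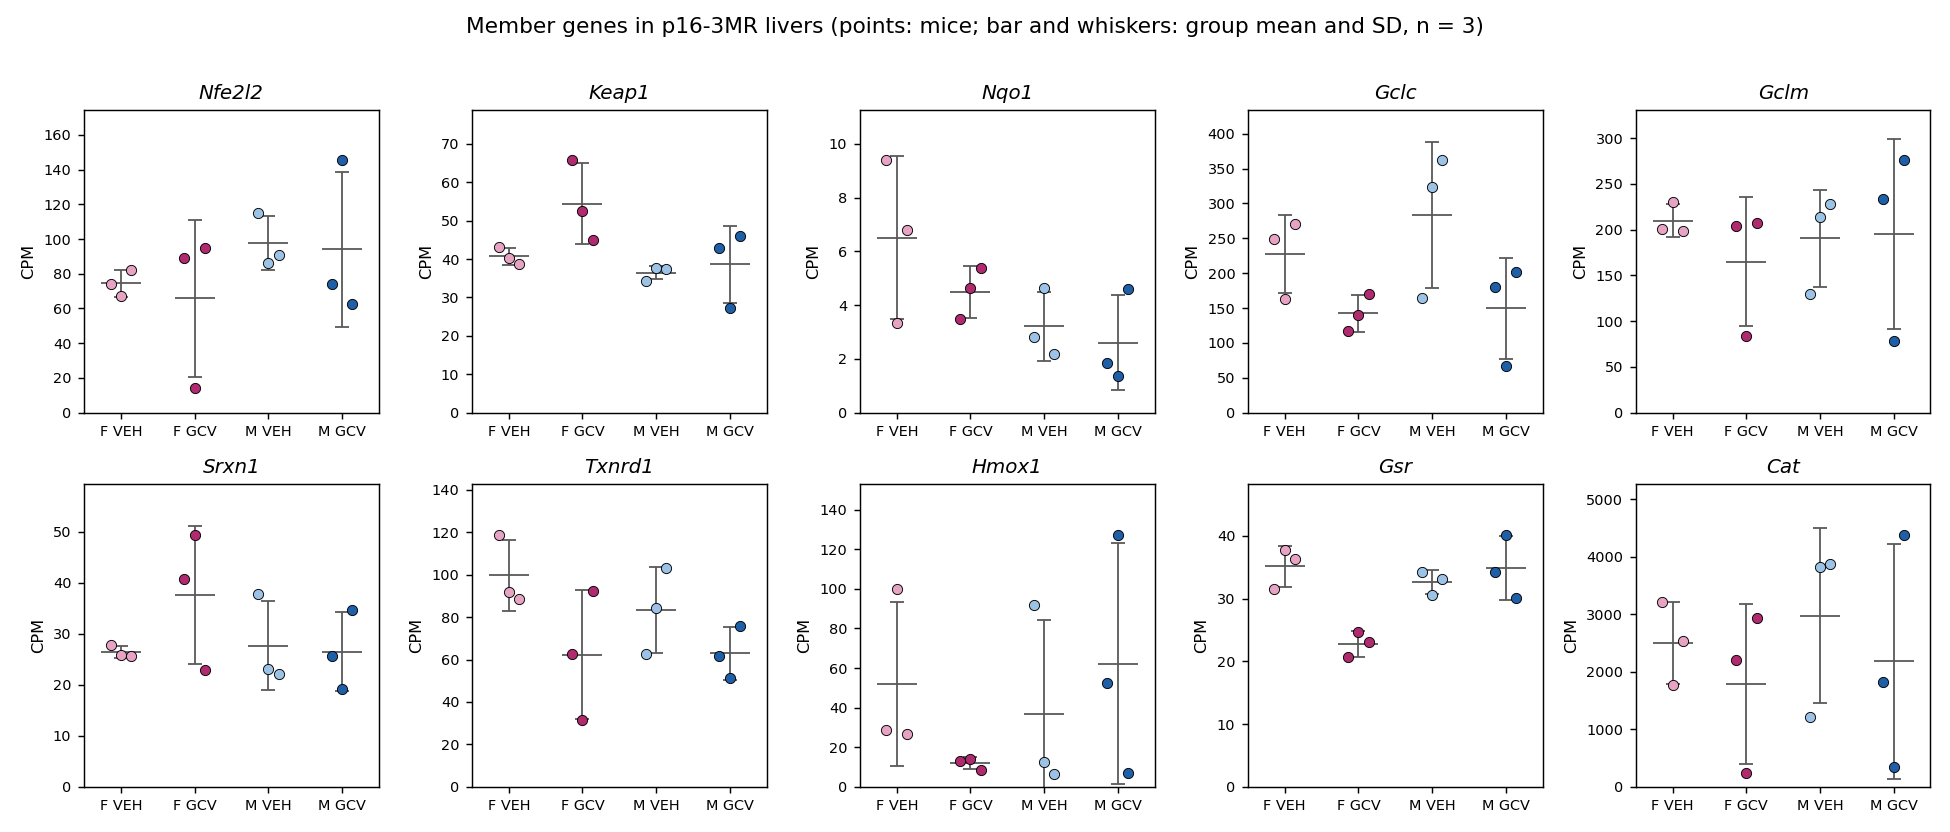
Level of each member in p16-3MR livers in TMM-scaled CPM, 1 panel per gene with its own axis from 0; points are mice, the bar and whiskers are the group mean and SD (n = 3), and whiskers that would pass below 0 are clipped. Gsr lies lower in all 3 GCV-treated females (20.6 to 24.7 CPM) than in the other 9 livers (30.2 to 40.2 CPM), while Hmox1 and Cat vary widely inside groups.

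In p16-3MR males, where the same comparison was made, 0 of 10 members were called, beside 0.0% of genes called, and 0 of 10 passed an unadjusted p under 0.05, as 1.91% of all genes did. DESeq2 called 5 genes, and 0 members. GCV and VEH males overlapped for every member, where 7.1% of the 7088 genes did not overlap. Gclc had the lowest p: 180, 67.0 and 202 CPM in GCV-treated males 30, 32 and 34 and 164, 324 and 362 CPM in VEH-treated males 24, 25 and 26. VEH-treated male 24 fell within the range of the GCV-treated males, and the log2 fold change was -0.92 (SE 0.48, 95% interval -1.95 to 0.11, adjusted p = 1). It became -0.59 without male 32. In females, the value of -0.68 for Gclc became -0.55 without female 31, and in both sexes the interval included 0.

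Hmox1 was at 52.3, 127 and 7.11 CPM in GCV-treated males 30, 32 and 34 and at 91.7, 12.5 and 6.72 CPM in VEH-treated males 24, 25 and 26. Each treatment held both high and low livers, and the log2 fold change of 0.75 (SE 0.95) lay between -0.38 without male 32 and 2.74 without male 24. Cat was at 1824, 348 and 4388 CPM after GCV and 1216, 3830 and 3884 CPM after VEH (-0.45, SE 0.95). The lowest values were again those of males 32 and 24, the highest was that of GCV-treated male 34, and the log2 fold change lay between -1.45 without male 34 and 0.035 without male 32. Gclm, low in male 32 (78.1 CPM) and male 24 (130 CPM), was at 213 to 276 CPM in the other 4 males (0.04, SE 0.50). Txnrd1 was at 51.1 to 75.9 CPM after GCV and 62.8 to 103 CPM after VEH (-0.41, SE 0.40). Its log2 fold change was -0.22 without VEH-treated male 26 and -0.56 without VEH-treated male 24. The log2 fold changes of Nfe2l2, Keap1, Nqo1, Srxn1 and Gsr lay between -0.32 and 0.09, each smaller than its SE. 

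Whether females and males responded differently to GCV was tested as the log2 fold change of females less that of males, and 0 of 10 members were called, beside 0.0% of genes (3.78% at an unadjusted p under 0.05; DESeq2 called 3 genes and 0 members). The lowest p belonged to Hmox1 (-2.89, SE 1.39, adjusted p = 0.976) and Gsr (-0.72, SE 0.38, adjusted p = 0.976). The value of Hmox1 was -4.94 without male 24 and -1.82 without male 32. A different response of the members in females and males was therefore not shown. The other 8 members lay between -0.38 (Gclm) and 0.57 (Srxn1). With 1 liver left out, Gclm ran from -0.79 without male 32 to -0.05 without male 34. Srxn1 ran from 0.19 without male 24 to 0.84 without GCV-treated female 35.

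Hmox1, Cat, Gclm and Gsr were set beside marker sums here, and the other members were not. For each of them, livers at one end of the range were at the same end of a marker sum. Gsr was highest in males 32, 24 and 30 and VEH-treated females 28 and 29, at 34.2 to 40.2 CPM. These livers also had the highest summed Kupffer cell markers, at 1046 to 4882 CPM, and the highest summed markers of monocytes and neutrophils. The 4 livers highest for Hmox1 (males 32, 24 and 30 and female 28, at 52.3 to 127 CPM) were also the 4 with the highest summed Kupffer cell markers, at 1151 to 4882 CPM, and the highest summed markers of monocytes and neutrophils. The 3 livers lowest for Cat and the 3 lowest for Gclm were the same livers, female 33 and males 32 and 24, and these had the lowest summed markers of pericentral hepatocytes (Glul, Cyp2e1, Oat, Cyp1a2, Slc1a2 and Lgr5), at 944, 209 and 938 CPM in that order, against 1214 to 5232 CPM in the other 9. They were also the 3 lowest for summed periportal hepatocyte markers, at 950, 449 and 962 CPM in that order against 1003 to 2394 CPM. At the high end only 1 of the 3 livers highest for Gclm was among the 3 highest for pericentral markers, and male 30 was second for Gclm (233 CPM) and ninth for those markers (1214 CPM). Males 32 and 24 also had the lowest hepatocyte sums, while female 33 had the highest, 164594 CPM. Female 33 also had the lowest TMM factor (0.259), and males 32 and 24 the highest (1.80 and 1.64). The part of cell composition, RNA quality or scaling in these values was not tested. Without livers 33, 32 and 24 together, 0 of 10 members were called in any p16-3MR comparison.

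**Figure D2:**
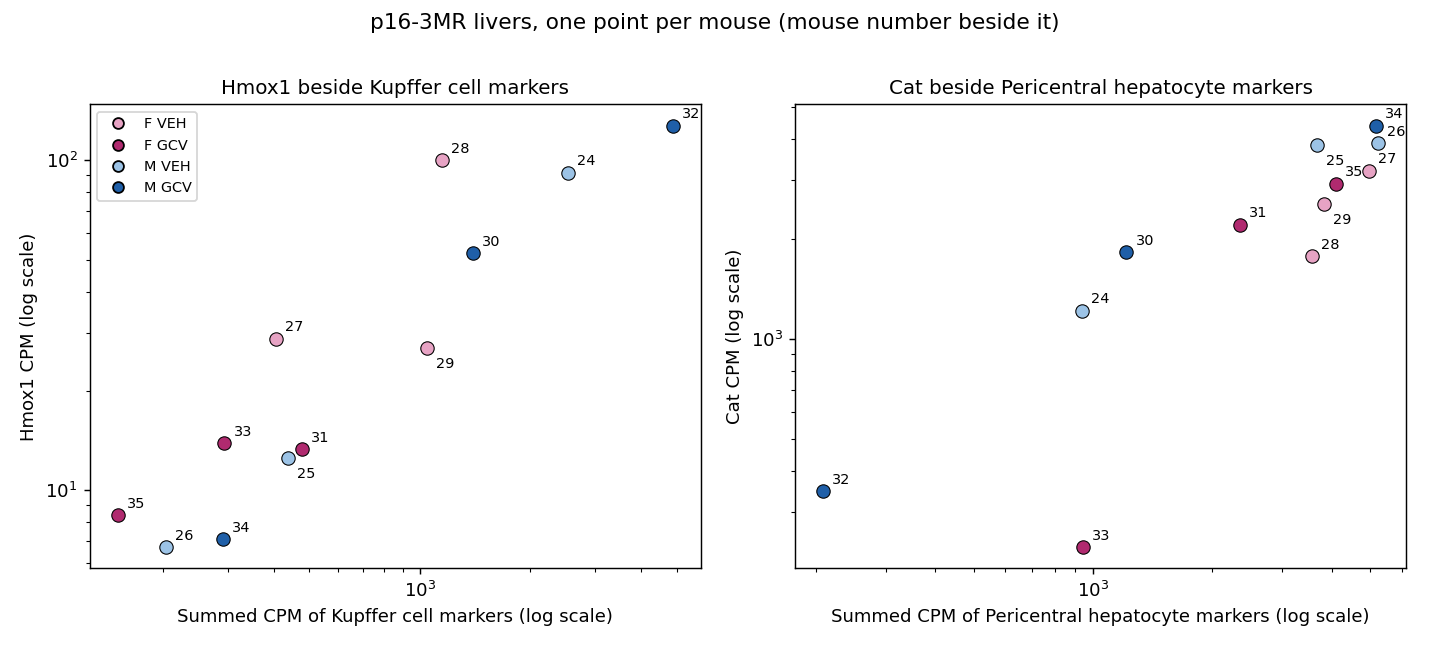
Level of Hmox1 against summed Kupffer cell markers (left) and of Cat against summed pericentral hepatocyte markers (right), both in CPM on log axes, 1 point per p16-3MR liver, coloured by group and numbered by mouse. Livers 32, 24, 30 and 28 are at the top right for Hmox1, and livers 33, 32 and 24 at the bottom left for Cat.

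In WT mice, which lack the transgene, GCV-treated livers were compared with VEH-treated livers to see what GCV does on its own. In females, 0 of 6 members were called by edgeR's test, beside 0.00791% of the 12643 genes (1 gene), and 0 of 6 had an unadjusted p under 0.05, beside 4.56% of genes. DESeq2 called 17 genes and 0 members. Gclc was at 146, 166 and 165 CPM in GCV-treated females 4, 5 and 6 and at 135, 113 and 132 CPM in VEH-treated females 4, 5 and 6. It was the only member whose groups did not overlap, where 12.2% of 5852 genes with a mean of at least 10 CPM did not (5 of the 6 members have that mean), and its log2 fold change of 0.33 (SE 0.23, 95% interval -0.16 to 0.81) was not called. The other 5 lay between -0.40 (Nqo1, SE 0.33) and 0.12 (Srxn1, SE 0.17). Without VEH-treated female 5 these were -0.063 for Nqo1 and 0.08 for Srxn1.

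In WT males, 0 of 6 members were called, beside 0.0% of genes, and 1 (Gclc) had an unadjusted p under 0.05, beside 5.06%; DESeq2 called 1 gene and 0 members. All 6 members were lower after GCV, where 47.6% of genes were, with a median of -0.21 against 0.00 over all genes. Summed markers of hepatocytes, erythroid cells and T and B cells separated the same males without overlap, and the other marker sums overlapped. After GCV and VEH the hepatocyte sums were 16887 to 17754 and 18051 to 18920 CPM (2 of 8 read). Erythroid sums were 1660 to 3766 and 1494 to 1622 CPM (4 of 6 read). Those of T and B cells were 2.75 to 4.10 and 1.74 to 1.86 CPM (4 of 5 read). Their part in the member values was not tested. Gclc was at 150, 216 and 146 CPM in GCV-treated males 1, 2 and 3 and at 114, 303 and 301 CPM in VEH-treated males 1, 2 and 3. VEH-treated male 1 was the lowest of the 6 and the other VEH-treated males the highest (log2 fold change -0.49, SE 0.23, adjusted p = 0.889). Without VEH-treated male 1, Gclc was called, at -0.82 (adjusted p = 0.00846), so that liver decides the call. Without VEH-treated male 2, and likewise without VEH-treated male 3, its log2 fold change was -0.29. Keap1 was at 89.9, 92.9 and 90.0 CPM after GCV and 104, 105 and 107 CPM after VEH. Its groups did not overlap, as for 9.55% of genes, and the change was small (-0.21, SE 0.11, adjusted p = 0.889).

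In WT livers 0 of 6 members were called for a different response in the 2 sexes ( beside 0.00791% of genes, 1 gene; 4.45% at an unadjusted p under 0.05), although all 6 differences were above 0, as 49.1% of genes were. Without VEH-treated male 1, 5 of the 6 were above 0, and Nqo1 was at -0.19. That of Gclc was largest among the members, 0.82 (SE 0.33, 95% interval 0.13 to 1.501, adjusted p = 0.982). Without VEH-treated male 1 it was 1.15 and called (adjusted p = 0.00564). With the replicate number as a block it was 0.73 and called as well (adjusted p = 0.0109), although it was not settled that the numbers pair these livers.

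**Figure D3:**
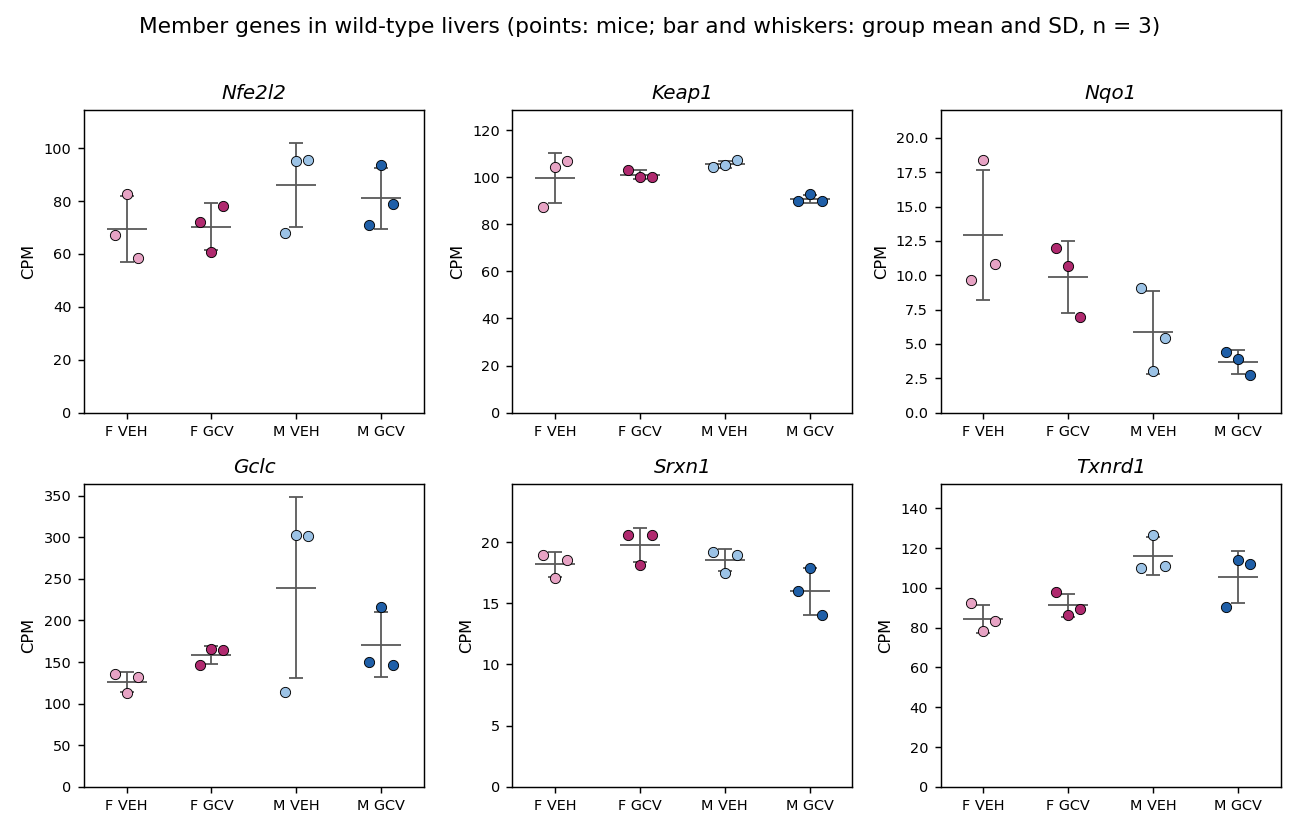
Level of the 6 members read in WT livers in TMM-scaled CPM, 1 panel per gene with its own axis from 0; points are mice, the bar and whiskers are the group mean and SD (n = 3). Nqo1 lies higher in females (6.93 to 18.4 CPM) than in males (2.75 to 9.05 CPM), and Gclc is at 114 CPM in 1 VEH-treated male and about 301 to 303 CPM in the other 2.

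Between the sexes of WT mice, with both treatments averaged, 2 of 6 members were called, Nqo1 (higher in females) and Txnrd1 (lower in females), beside 7.94% of all genes. Nqo1, which reduces quinones to hydroquinones and is widely used as a marker of Nrf2 activity, was at 12, 10.6 and 6.93 CPM in GCV-treated and 9.63, 18.4 and 10.8 CPM in VEH-treated females. In males it was at 4.40, 3.90 and 2.75 CPM after GCV and 9.05, 3.06 and 5.42 CPM after VEH. The sexes overlapped only through VEH-treated male 1 and GCV-treated female 6. The mean was 11.4 ± 3.82 CPM in females and 4.76 ± 2.31 CPM in males (SD, n = 6), a log2 difference of 1.28 (SE 0.26, 95% interval 0.74 to 1.81, adjusted p = 0.00226), 2.43-fold. It rested on 9 to 83 counts per liver, and was 1.39 among GCV-treated livers alone (adjusted p = 0.0490) and 1.16 among VEH-treated livers alone (adjusted p = 0.0656).

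Txnrd1 was at 97.8, 86.6 and 89.5 CPM in GCV-treated and 92.2, 78.3 and 83.2 CPM in VEH-treated females. In males it was at 90.6, 114 and 112 CPM after GCV and 110, 127 and 111 CPM after VEH. Of the males only GCV-treated male 1 fell within the female range. The log2 difference was -0.33 (SE 0.08, 95% interval -0.51 to -0.16, adjusted p = 0.0151), 0.794-fold. It passed among VEH-treated livers alone (-0.45, adjusted p = 0.0326) and not among GCV-treated livers alone (-0.21, adjusted p = 0.500), and without VEH-treated male 2 its adjusted p was 0.0530.

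Library values and 3 of 10 marker lists also separated the WT sexes without overlap. TMM factors were 1.11 to 1.14 in females and 0.835 to 0.9747 in males, the 10 largest genes held 18.6 to 19.5% and 23.2 to 29.5% of counts, and mitochondrially encoded genes held 4.09 to 4.53% and 3.20 to 3.97%. Summed markers were 276 to 340 CPM in females and 216 to 269 CPM in males for stellate cells (4 of 6 read), 40.9 to 57.1 and 30.4 to 40.5 CPM for sinusoidal endothelium (3 of 6 read), and 13215 to 14880 and 16887 to 18920 CPM for hepatocytes (2 of 8 read). Their part in the differences of Nqo1, Txnrd1 and the other genes called between the WT sexes was not tested, and with DESeq2's size factors Nqo1 and Txnrd1 were called as well.

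Gclc was lower in WT females, at 113 to 166 CPM against 114 to 303 CPM in males, but did not pass (-0.52, SE 0.16, adjusted p = 0.0588). It passed among VEH-treated livers alone (-0.92, adjusted p = 0.0254) and without VEH-treated male 1 (-0.68, adjusted p = 1.05e-05). Nfe2l2 was at 58.3 to 82.7 CPM in females and 67.9 to 95.4 CPM in males (-0.26, SE 0.11, adjusted p = 0.180, and -0.33 with adjusted p = 0.0376 without VEH-treated male 1). Keap1 (0.03, SE 0.08) and Srxn1 (0.14, SE 0.12) had intervals that included 0. No member separated the sexes without overlap, as 8.32% of genes did.

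In p16-3MR livers 0 of 10 members were called between the sexes, beside 0.303% of genes, and 1 (Nqo1) passed an unadjusted p under 0.05, beside 7.05% of genes. Nqo1 was at 3.33 to 9.38 CPM in females and 1.37 to 4.64 CPM in males, a log2 difference of 0.92 (SE 0.41, 95% interval 0.04 to 1.79, adjusted p = 0.686), from 6 to 70 counts per liver. Txnrd1 was at 31.7 to 119 CPM in females and 51.1 to 103 CPM in males (0.13, SE 0.28). The other 8 members lay between -0.96 (Hmox1, SE 0.69) and 0.33 (Keap1, SE 0.21). Without VEH-treated male 24 the value of Hmox1 was -0.035, without GCV-treated male 32 it was -0.51, and without VEH-treated female 28 it was -1.43. That of Keap1 was 0.19 without male 32 and 0.40 without GCV-treated male 34. Sex differences were not tested between the genotypes.

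**Figure D4:**
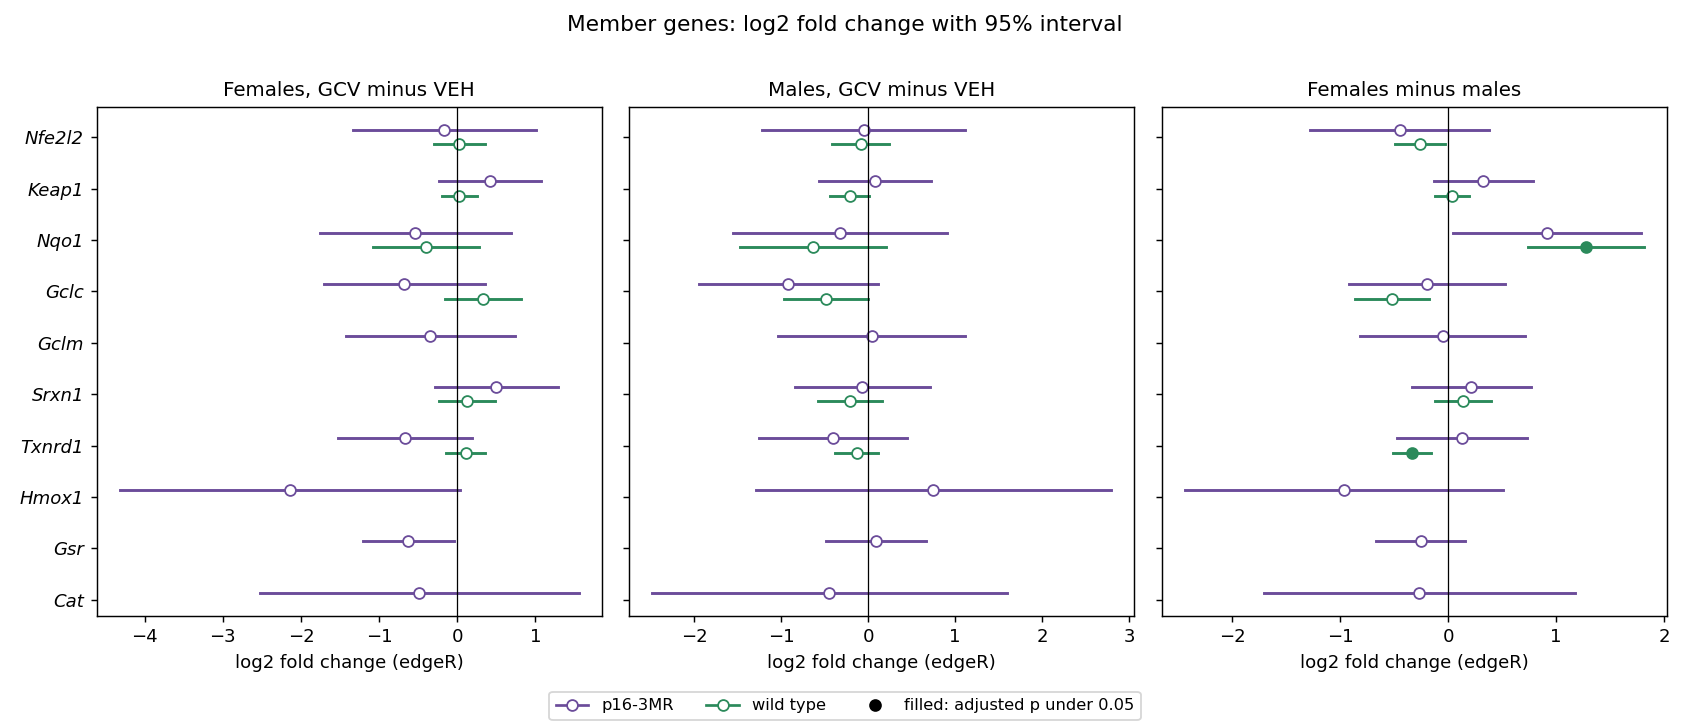
log2 fold change of each member with its 95% interval from edgeR, for GCV minus VEH in females (left), GCV minus VEH in males (middle) and females minus males (right), in p16-3MR (purple) and WT livers (green); filled points have an adjusted p under 0.05. Only Nqo1 (1.28) and Txnrd1 (-0.33) between the sexes of WT livers are filled.

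The members also varied unequally among themselves. Within p16-3MR groups the SD of log2 CPM was 0.15 for Gsr and 0.25 for Keap1 but 1.46 for Cat and 1.54 for Hmox1. In WT groups it was 0.08 for Keap1, 0.11 for Srxn1 and 0.13 for Txnrd1, and 0.44 for Gclc and 0.50 for Nqo1. Across the 12 p16-3MR livers, log2 CPM of Gclm and Cat had a Pearson r of 0.93 (0.90 without liver 33), and Keap1 and Gsr one of -0.84 (-0.82). The r of Nfe2l2 with Gclm was 0.24 over 12 livers and -0.91 without liver 33, so 1 library sets its sign. These values describe livers that share their libraries and scaling.

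Among the 7088 genes with a mean of at least 10 CPM, the gene whose log2 CPM was most like that of a member across the 12 p16-3MR livers was Cd5l for Hmox1 (r = 0.96), Slc10a1 for Cat (0.99), Dpyd for Gclm (0.97), Coq8a for Gclc (0.95), Phactr4 for Txnrd1 (0.99), Gimap6 for Gsr (0.93), Kng1 for Keap1 (0.94), Nfkbib for Srxn1 (0.91) and Tfdp1 for Nfe2l2 (0.97). Without liver 33 the most similar gene stayed the same for Gclc (0.97) and Txnrd1 (0.99) and was another for the remaining 7, namely Nin for Hmox1 (0.96), Aadac for Cat (0.99), Eva1a for Gclm (0.97), Crebrf for Gsr (0.95), Epas1 for Keap1 (0.95), Bst2 for Srxn1 (0.86) and Nipa2 for Nfe2l2 (0.94). Cd5l, which was then second for Hmox1 (0.96), is a macrophage gene and one of the Kupffer cell markers, and Slc10a1 encodes the bile acid importer of hepatocytes. In WT livers, among 5852 genes, it was Mrpl38 for Gclc (0.96), Pdik1l for Txnrd1 (0.91), Fbxl20 for Nfe2l2 (0.93), Aldh8a1 for Srxn1 (0.84) and Eif3h for Keap1 (0.83). The mean of Nqo1 over 12 livers was under 10 CPM in both tables, and it was left out. 

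Beyond the members, 87 genes in 7 lists around the pathway (Nrf2 regulation, glutathione, thioredoxin and peroxiredoxin, NADPH supply, quinone and xenobiotic enzymes, haem and iron, superoxide and peroxisomes) were read, all 87 in p16-3MR and 48 in WT livers. None was called by edgeR in any p16-3MR comparison or in the WT treatment comparisons. In p16-3MR females, the GCV-treated group was above the VEH-treated group for 34 of the 87 and below it for 53. Of all genes, 49.8% were lower. The median of the 87 was -0.11 against 0.00 over all genes. At an unadjusted p under 0.05, 4 higher and 1 lower passed, beside 5.05% of all genes higher and 2.32% lower. The lowest p was that of Gss, glutathione synthetase, which was higher after GCV without overlap, at 72.5 CPM on average against 33.4 CPM (1.11, SE 0.37, adjusted p = 0.646). Next was Gstp1, a glutathione S-transferase, at 276 and 78.7 CPM with overlapping groups (1.80, SE 0.69, adjusted p = 0.667), while its near-identical neighbour Gstp2 was at 13.98 and 45.1 CPM. The split of reads between this pair is uncertain in both tables. In p16-3MR males, 39 were higher and 48 lower, where 45.5% of all genes were lower, and 2 passed the unadjusted threshold, beside 1.91% of all genes. These were Gstp2, at 5.36 CPM on average after GCV and 211 CPM after VEH without overlap (-5.30, SE 1.16, adjusted p = 1) where Gstp1 was at 226 and 246 CPM, and Gsta1, which had no counts in any GCV-treated male and averaged 5.06 CPM in VEH-treated males, of which male 26 had none either. The same genes had the lowest p for a different response in the p16-3MR sexes, with an adjusted p of 0.976 for both. In WT females 31 of 48 were higher and 17 lower, where 49.2% of all genes were higher. At an unadjusted p under 0.05, 5 higher and 2 lower passed, beside 2.25% and 2.32% of all genes. Gsta2 (0.64, SE 0.18) and Chac1, which degrades glutathione (-1.86, SE 0.60), had the lowest p. In WT males 22 were higher and 26 lower, where 47.6% of all genes were lower. At that threshold 2 higher and 2 lower passed, beside 2.65% and 2.41% of all genes. The genes with the lowest p were Blvra (0.72, SE 0.22) and the aldehyde dehydrogenase Aldh3a2 (-0.58, SE 0.25). For a different response in the WT sexes they were Gsta2 (0.80, SE 0.26) and Blvra (-0.81, SE 0.30), each with an adjusted p of 0.982.

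Between the sexes of WT mice, 10 of the 48 were called, 2 higher and 8 lower in females, beside 3.89% of genes higher and 4.05% lower. Gstp1, a glutathione S-transferase of phase II conjugation, averaged 387 CPM in females and 3843 CPM in males (-3.31, SE 0.12) and Gstp2 4.13 and 100.1 CPM (-4.61, SE 0.22) with the same limit on their split; the marker sums and library values that separate the WT sexes stand beside these calls too. Lower in females were also the peroxiredoxins Prdx2 (-0.31) and Prdx5 (-0.43), the epoxide hydrolase Ephx1 (-0.53), the aldehyde reductase Akr7a5 (-0.30), Ugdh (-0.50), which makes UDP-glucuronate, and Bach1 (-0.45), a repressor at antioxidant response elements. Higher in females were Gsta4 (0.32), which conjugates the lipid aldehyde 4-hydroxynonenal, and Blvra (0.51), the biliverdin reductase that acts after Hmox1. The called genes thus stand on both sides, as Nqo1 and Txnrd1 do among the members. In p16-3MR livers the lowest adjusted p between the sexes was 0.285, for G6pdx, the NADPH-forming glucose-6-phosphate dehydrogenase (-1.76, SE 0.46), followed by Txnip, the thioredoxin inhibitor (-1.24, SE 0.45, adjusted p = 0.666).

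**Figure D5:**
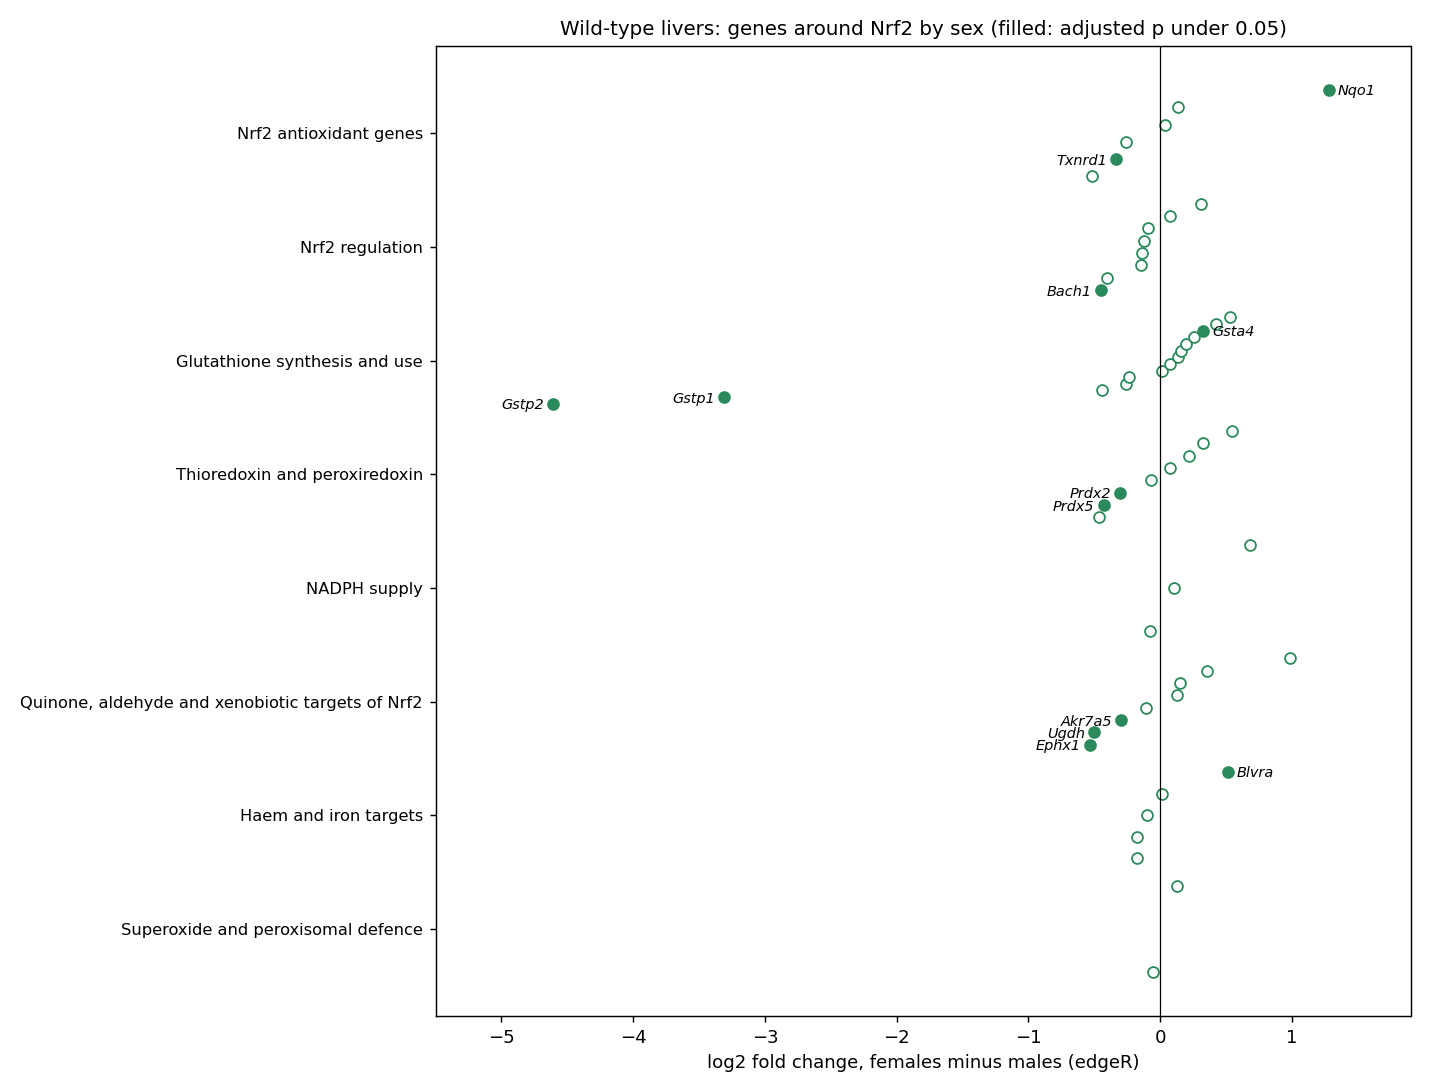
log2 fold change between females and males in WT livers for the 6 members (top row) and the 48 genes of 7 lists, 1 point per gene, filled and named where the adjusted p was under 0.05. Nqo1 is the highest called gene (1.28) and Gstp2 the lowest (-4.61), with most points within 1 log2 unit of 0.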

How the data were processed

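Liver libraries of 12 p16-3MR and 12 wild-type mice were read from 2 gene tables. Per the submitters' processing notes and the study's methods, reads were checked with FastQC 0.11.9, trimmed with Trim Galore 0.6.10 and quantified with Salmon 1.10.3 (build mm10), then summed to genes with tximport. The authors deposited, for genes with at least 3 reads, the estimated number of reads per gene (expected counts) as unscaled whole numbers; whether counting used strand or molecular identifiers is not given in the sources used here. Reads of genes that overlap a member (antisense Gm16754 at Keap1, Gm17494 and the pseudogene Gm6061 at Gclm, Eid3 at Txnrd1; GENCODE M21) may therefore not be separable from it.

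Counts were analysed in R 4.3.3 with edgeR 4.0.16 (TMM, a group-means design fitted to all 12 livers of a genotype, quasi-likelihood test, Benjamini-Hochberg over all genes, calls at an adjusted p under 0.05). All p-values in the text are from this fit unless DESeq2 or limma is named, SEs are the log2 fold change over the root of F, and for log2 CPM the prior count was 2. Contrasts were GCV minus VEH in each sex, the difference between these, and females minus males. CPM is not divided by gene length, so levels were not compared between genes.

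Wild-type labels were matched to a symbol when exactly 1 symbol gives that label once the 9 missing lower-case letters are removed from it; 10496 labels matched 1 symbol, 2067 several and 80 none. Promoter windows came from RefSeq. An item of the lists is not reported here and is not counted in them. The members, lists and markers were chosen with earlier results of these data known. Genes named are the members, the most similar gene of each, and, in the 7 lists, those called or, in a comparison with no call, the 2 with the lowest p. Alternatives were DESeq2 1.42.0, limma 3.58.1 (voom with quality weights), DESeq2's size factors, filterByExpr, removal of mitochondrially encoded genes, fits of 1 sex or 1 treatment, a replicate block in wild-type mice, each liver left out, and, chosen after seeing the data, DESeq2 without liver 33 and a fit without livers 33, 32 and 24. The fits were tested on simulated data with 200 changed genes. Python 3.11.15, pandas 2.3.3 and matplotlib 3.10.9 were also used.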

Additional observations from a re-analysis of the deposited data

How the results depend on the processing

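With 3 livers per group and a large spread in p16-3MR livers, intervals of about 1 log2 unit on either side were common, so smaller differences could not be shown. Of 64 log2 fold changes of members, 35 kept their direction in every alternative, and 29 turned in at least 1, all of them uncalled in the edgeR fit. With 1 liver left out, 50 of the 64 turned or moved by over 1.5 times for at least 1 liver; Nqo1 and Txnrd1 between the WT sexes did not. The cause of these turns and of the changed counts was not tested. The scaling alternatives moved the median over all genes by over 0.1 (log2) only with limma-voom in p16-3MR females and in the difference between the sexes there (by 0.10 and 0.14); with a liver left out it moved by up to 0.14 in the same comparisons.

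Counts of genes called moved as follows. In WT females 1 gene was called by edgeR, 17 by DESeq2, 0 with filterByExpr, 3 by limma-voom and 44 in a fit of the 6 female livers, and 0 to 12 with each liver left out (12 without VEH-treated female 5). In WT males it was 0, and 1 by DESeq2, and 0 to 46 with each liver left out (46 without VEH-treated male 1). For the difference between the WT sexes it was 1, 0 with filterByExpr, and 0 to 17 with each liver left out (17 without VEH-treated male 1). Between the WT sexes it was 1004, 410 among GCV-treated and 483 among VEH-treated livers alone. In p16-3MR females it was 0, and 90 by DESeq2, 28 by DESeq2 without liver 33, 7 by limma-voom, 4 without livers 33, 32 and 24, 3 in a fit of the 6 female livers, and 0 to 1 with each liver left out. In p16-3MR males it was 0, and 5 by DESeq2, 4 by DESeq2 without liver 33, 145 by limma-voom, 5 without the 3 livers, and 0 to 1 with each liver left out. For the difference between the p16-3MR sexes it was 0, and 3, 4, 1 and 2 in the same order. Between the p16-3MR sexes it was 66, and 196 by DESeq2, 218 by DESeq2 without liver 33, 215 by limma-voom, 178 without the 3 livers, 21 among GCV-treated and 26 among VEH-treated livers. In all of these fits of p16-3MR livers 0 members were called.

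With the replicate number as a block, 106 genes were called in WT females, 68 in WT males and 79 for their difference, where Gclc was called (0.73, adjusted p = 0.0109); no other member's call changed. Whether equal numbers pair the WT livers was not settled. Deviations of same-numbered livers correlated at -0.10 to 0.00 in females and -0.16 to 0.38 in males. Those of differently numbered livers correlated at -0.11 to 0.16 and -0.52 to 0.37, and so few livers cannot exclude a pairing. No paired analysis of p16-3MR livers was possible because their groups share no numbers.

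Members that turned were the following. In WT livers, Keap1 (-0.086) and Srxn1 (-0.027) between the sexes among VEH-treated livers. In p16-3MR females, Nfe2l2 by DESeq2 without liver 33 (0.29), by limma-voom (0.013) and without the 3 livers (0.26), and Cat by DESeq2 without liver 33 (0.026). In p16-3MR males, Srxn1 by limma-voom (0.10) and without the 3 livers (0.41). For the difference between the p16-3MR sexes, by DESeq2 without liver 33 Nfe2l2 (0.34), Txnrd1 (0.035) and Cat (0.47), by limma-voom Nfe2l2 (0.28), Nqo1 (0.26) and Cat (0.44), and without the 3 livers Nfe2l2 (0.63), Srxn1 (-0.19), Txnrd1 (0.048) and Cat (0.32). Between the p16-3MR sexes, without the 3 livers Nfe2l2 (0.076) and Hmox1 (0.46), by DESeq2 without liver 33 Gclm (0.10), among VEH-treated livers Gclm (0.14), Srxn1 (-0.070), Hmox1 (0.48) and Gsr (0.11), and among GCV-treated livers Txnrd1 (-0.0064).

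With each liver left out, the ranges of those that turned were, in WT females, -0.063 to 0.079 for Keap1 and -0.084 to 0.17 for Nfe2l2; in WT males, -0.23 to 0.0018 for Nfe2l2; for the difference between the WT sexes, -0.19 to 0.57 for Nqo1; in p16-3MR females, -0.51 to 0.24 for Nfe2l2; in p16-3MR males, -1.45 to 0.035 for Cat, -0.29 to 0.39 for Gclm, -0.056 to 0.19 for Gsr, -0.38 to 2.74 for Hmox1, -0.060 to 0.25 for Keap1, -0.55 to 0.17 for Nfe2l2, -0.998 to 0.029 for Nqo1 and -0.31 to 0.23 for Srxn1. For the difference between the p16-3MR sexes they were -0.59 to 0.97 for Cat, -0.15 to 0.52 for Gclc, -0.46 to 0.34 for Nfe2l2 and -0.56 to 0.46 for Nqo1, and between the p16-3MR sexes -0.54 to 0.24 for Cat, -0.27 to 0.11 for Gclm and -0.073 to 0.28 for Txnrd1.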
